A study of Mus musculus with 6 samples.

Results

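The genes described here are the machinery that folds secreted proteins in the endoplasmic reticulum (ER), the machinery that removes those that misfold, and the sensors that watch over both. They were chosen by name from a list of 36 genes: 7 for BiP and its co-factors, 4 other chaperones, 8 disulfide isomerases and their oxidase, 6 prolyl isomerases, 8 genes of ER-associated degradation, and the sensors Ern1 and Atf6 with the transcription factor Xbp1. All 36 were among the 17419 genes of the deposited table, and 35 passed the filter on low counts; Derl3, a degradation gene with 7 to 14 counts per sample, did not. RNA had been sequenced from fibroblasts of the enthesis, where tendon inserts into bone. All samples came from SKG mice, a strain with a mutant Zap70, a kinase of T cells, in which autoimmune arthritis can develop. The diseased group (titles with NTS) held 3 samples and the un-diseased group (titles with UN) held 3; age, sex, the means of inducing disease and any pooling of animals are not given in the sources used here. Whether each sample is an animal or culture of its own is not stated, so the p-values speak of the spread among these 6 samples alone, part of which may be technical.

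Proteins bound for secretion enter the ER unfolded. The chaperone BiP holds them, disulfide isomerases join their cysteines, prolyl isomerases turn their proline bonds, and chains that fail are pulled back into the cytosol and degraded. When unfolded chains build up, the sensors IRE1 (Ern1), ATF6 and PERK (Eif2ak3) start the unfolded protein response: IRE1 splices the Xbp1 messenger, ATF6 is cut to release a transcription factor, and PERK slows translation and lets ATF4 be made. Fibroblasts of tendon and its insertion put collagen, which is rich in proline, through this machinery. Counts per gene do not show Xbp1 splicing, ATF6 cleavage or PERK activity.

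Total counts were 17233405 to 18290870 in the diseased and 16720605 to 17864659 in the un-diseased samples. Levels are given as CPM, counts scaled to the TMM-adjusted library total, on which 3 counts are worth 0.147 to 0.188 CPM, for counting error only. Fibroblast genes were high in both groups, with Col1a1 at 15965 to 25592 CPM in diseased and 10798 to 16772 CPM in un-diseased samples. The fold change was above 0 for 8 of the 10 fibroblast markers, and their median on the log2 scale was 0.40, beside 0.32 for the ER genes. By edgeR 0 of the 10 passed and the unadjusted p was under 0.05 for 5; the block gave 2 rises and 0 falls, and DESeq2 called 4 as higher and 1 as lower. The part of these markers in the results on the ER genes was not tested. The 18 macrophage markers summed to 368, 555 and 205 CPM in diseased replicates 1, 2 and 3, against 126, 272 and 49.5 CPM in the un-diseased ones, and 17 of the 18 had a positive fold change. By edgeR 0 of these 18 passed, the unadjusted p was under 0.05 for 8, and DESeq2 called 5. With the replicate number as a block 17 rose. Of all tested genes edgeR called 1.61% as higher, and 27.8% had an unadjusted p under 0.05. Of the same genes DESeq2 called 4.79% as higher and 6.65% as lower, and the block 10.5% as higher and 13.3% as lower. Plasma cells are rich in ER chaperones; the B cell and plasma cell genes Mzb1, Cd79a, Cd79b, Ms4a1, Tnfrsf17 and Pou2af1 were too low to be tested, and the highest of their levels in any sample was 0.496 CPM, for Cd79a. In such bulk samples, fewer cells of a type and less RNA per cell cannot be told apart.

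Folding enzymes rose in diseased samples and a gene of the degradation machinery fell, each by less than 2-fold. By edgeR's quasi-likelihood test with adjustment over all 13264 tested genes, Pdia4, Pdia5, Fkbp11 and Fkbp14 rose and Herpud1 fell, and the other 30 tested members did not pass. That is 5 of 35, where 3.73% of all tested genes were called, 1.61% as higher and 2.13% as lower. The median log2 fold change was 0.32 over the members and 0.02 over all tested genes, and 26 of the 35 members had a positive value, as had 51.8% of all tested genes. Samples with the same replicate number deviated together from their group means, so the test was also run with that number as a block. The pairing was read from these same data, and the labels do not state it. Results with the block therefore hold only if the numbers do pair samples. The block called 14 of the 35 members, 11 as higher and 3 as lower, where it called 23.9% of all tested genes, 10.5% as higher and 13.3% as lower. The 5 calls made without the block were among these 14. Upper-quartile scaling, under which the median of all tested genes moved to 0.10 from the 0.02 above, called 7 members as higher and 1 as lower. It called 5.32% of all tested genes, 3.14% (417) as higher and 2.17% (288) as lower, where TMM scaling gave 213 and 282. DESeq2 called 9 members as higher and 2 as lower, where it called 4.79% of all tested genes as higher and 6.65% as lower. An unadjusted p under 0.05 by edgeR was found for 16 of the 35 members and for 27.8% of all tested genes. The groups did not overlap for 15 members, 13 with diseased samples above and 2 below, and for 31.9% of all tested genes. The 5 calls of the test without the block rested on the full set of samples: without un-diseased replicate 1 the test called 3 of them, and without any other single sample it called 0.

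**Figure D1:**
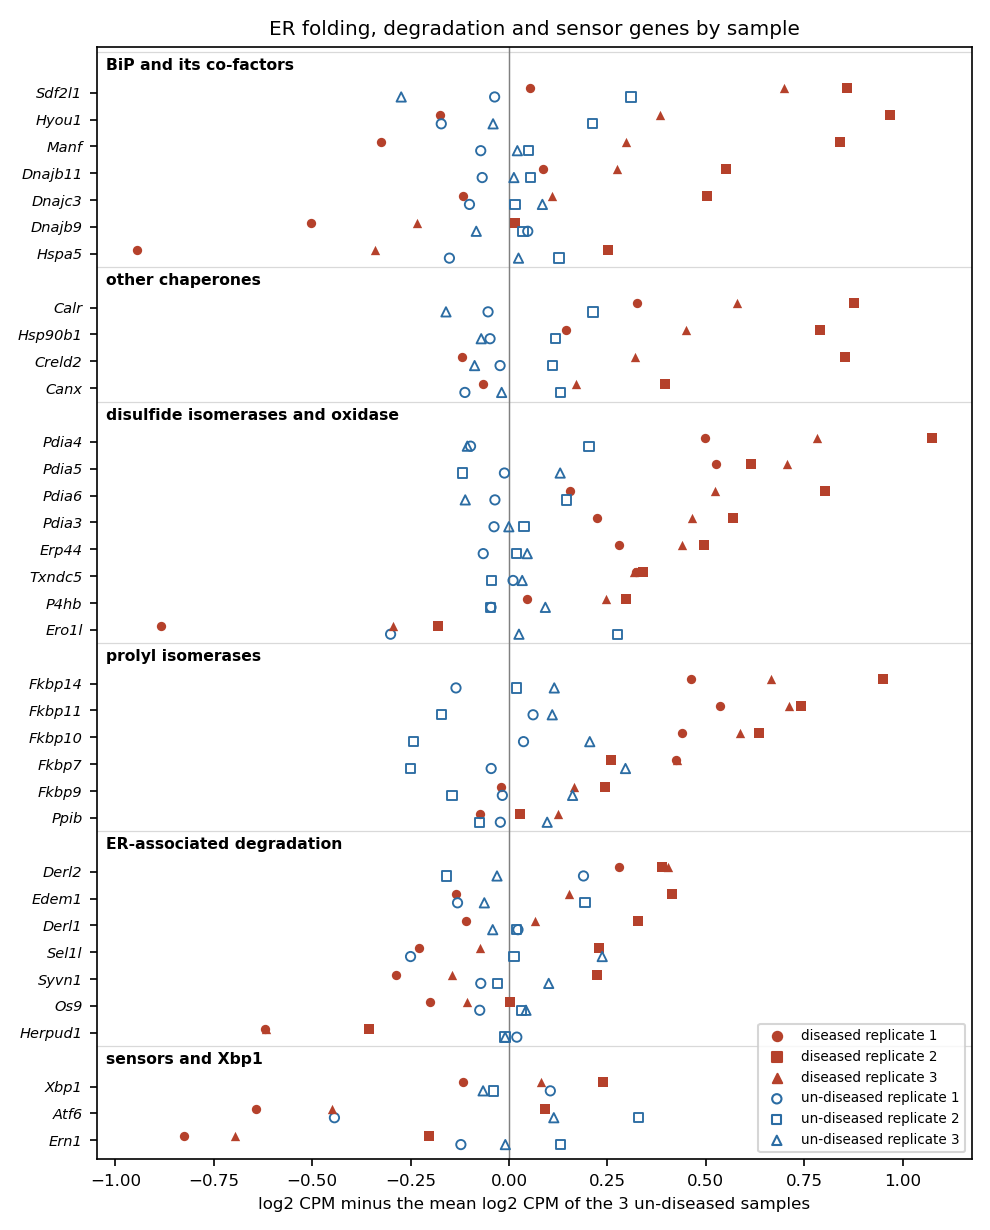
Level of the 35 tested genes in every sample, as log2 CPM minus the mean log2 CPM of the 3 un-diseased samples, by role; filled red symbols are diseased and open blue symbols un-diseased samples, and the shape gives the replicate number. Diseased replicate 2 (square) lay highest in its group for 31 genes and diseased replicate 1 (circle) lowest for 33.

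**Figure D2:**
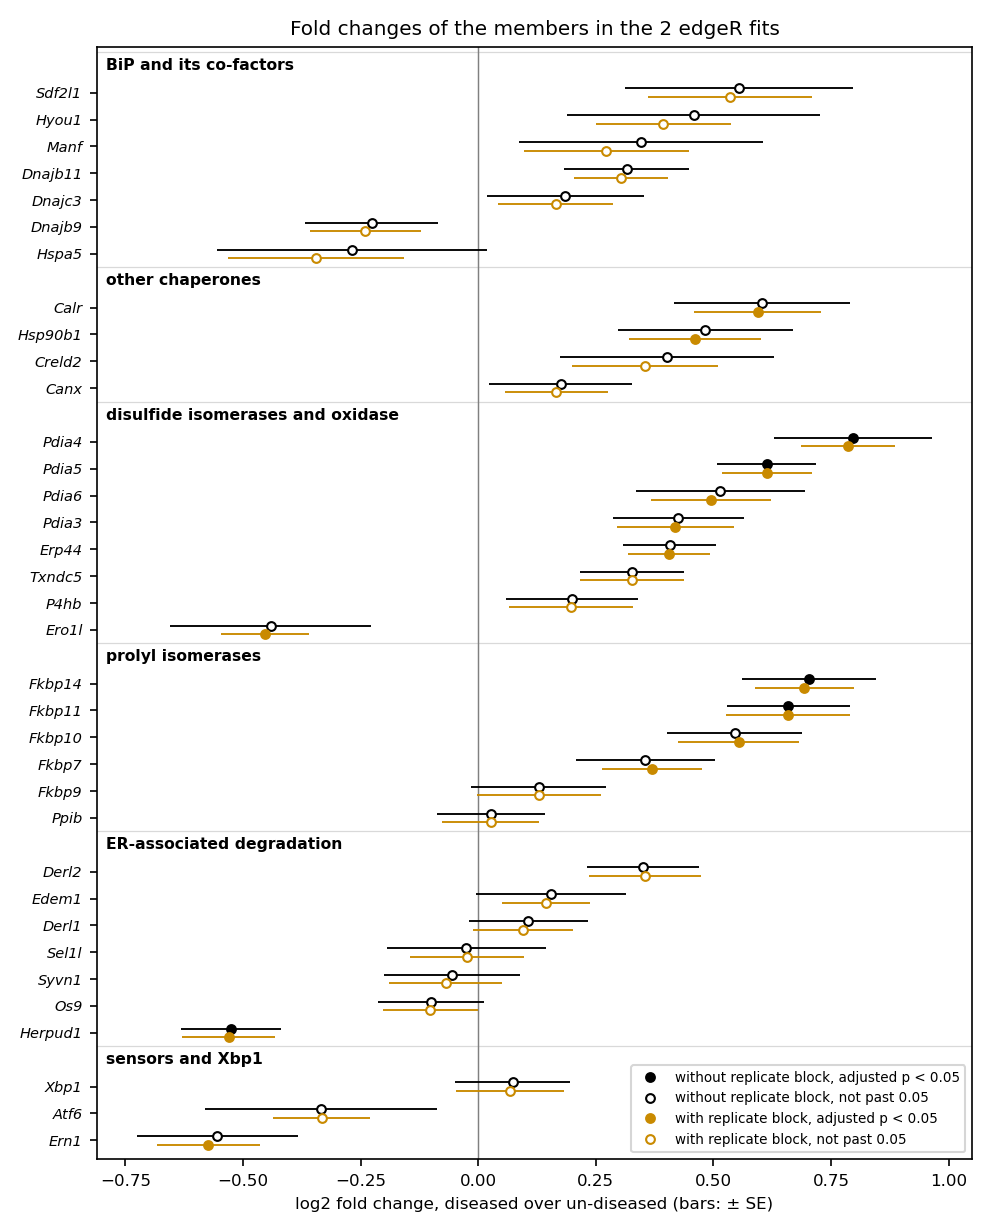
Log2 fold change of diseased over un-diseased (± SE) for the 35 tested genes, from edgeR without (black) and with (yellow) the replicate block; filled points passed the adjusted threshold of 0.05. Isomerases lie to the right of 0, and Herpud1, Ern1 and Ero1l to the left.

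Part of this machinery carries its response elements close to the start of transcription, and these are shown because they separate members that share a known control from those in which no such letters were found. The ER stress response element (ERSE, the letters CCAAT, any 9 bases, then CCACG) binds NF-Y at its CCAAT end and ATF6 or XBP1 at its CCACG end. A shorter form, ERSE-II (the letters ATTGG, any 1 base, then CCACG), is known from Herpud1. Both were searched on both strands in the 250 bases before each start, in RefSeq promoter windows of GRCm38.p6, which held 31 of the 36 members. ERSE was found in 9 of the 31 members, against 0.151% of the 10570 tested genes with a window, and 8 of the 16 tested genes that held it were members. ERSE-II was found in Herpud1 alone among the members and in 0.0662% of those tested genes. The members were picked by what they do, and many are textbook targets of this response, so the high share is a description of the list. Besides the genes printed here, ERSE was found in Canx, Creld2, Derl3, Dnajc3 and Syvn1. Printed are the matches of Hspa5, of Herpud1, which fell, and of the 3 members with an ERSE that rose with the block, Hsp90b1, Calr and Pdia6. They are written from CCAAT to CCACG, or from ATTGG to CCACG, in capitals, with 15 bases to either side.
Hspa5 (chr2:34772010-34772058, + strand): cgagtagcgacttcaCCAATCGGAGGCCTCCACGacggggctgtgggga
Hsp90b1, far match (chr10:86705623-86705671, - strand): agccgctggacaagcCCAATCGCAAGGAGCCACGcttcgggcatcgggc
Hsp90b1, near match (chr10:86705518-86705566, + strand): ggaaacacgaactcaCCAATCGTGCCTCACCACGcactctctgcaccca
Calr (chr8:84847060-84847108, + strand): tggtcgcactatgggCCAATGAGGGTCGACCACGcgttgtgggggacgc
Pdia6 (chr12:17266476-17266524, + strand): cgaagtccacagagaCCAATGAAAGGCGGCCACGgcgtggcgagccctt
Herpud1, ERSE-II (chr8:94386362-94386402, + strand): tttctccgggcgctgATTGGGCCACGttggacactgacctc
Of the 4 genes that rose, only Pdia4 came near this pattern, with a stretch in which 1 of the 10 fixed letters of ERSE differed.
Pdia4, near-match in capitals (chr6:47813587-47813635, + strand): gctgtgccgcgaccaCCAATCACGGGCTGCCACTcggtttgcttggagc
Allowing 1 such difference, 14 of the 31 members and 2.08% of the tested genes matched. Fkbp11, Fkbp14 and Pdia5 were not among the 14. The core of the XBP1 element (UPRE, TGACGTG) was found in Hspa5 and Txndc5, against 2.68% of tested genes, and a form of the ATF4 site (TGATGNAAT) in 0 members, against 0.53%.

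The 8 tested members with an ERSE had a median log2 fold change of 0.29, and the 22 with a window and no ERSE 0.26. The 22 include Herpud1, with its ERSE-II, and Derl2, Erp44, Pdia3, Pdia4 and Sel1l, which matched ERSE with 1 letter different. The 2 medians therefore do not set members with a response element against members without one. Of the 8, 0 passed edgeR's test without the block, 3 had an unadjusted p under 0.05, with the block 3 rose, and DESeq2 called 1 as higher. The shares over all tested genes were 1.61%, 27.8%, 10.5% and 4.79%, the first for rises. Among them Calr stood highest at 0.60 and Hspa5 lowest at -0.27.

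**Figure D3:**
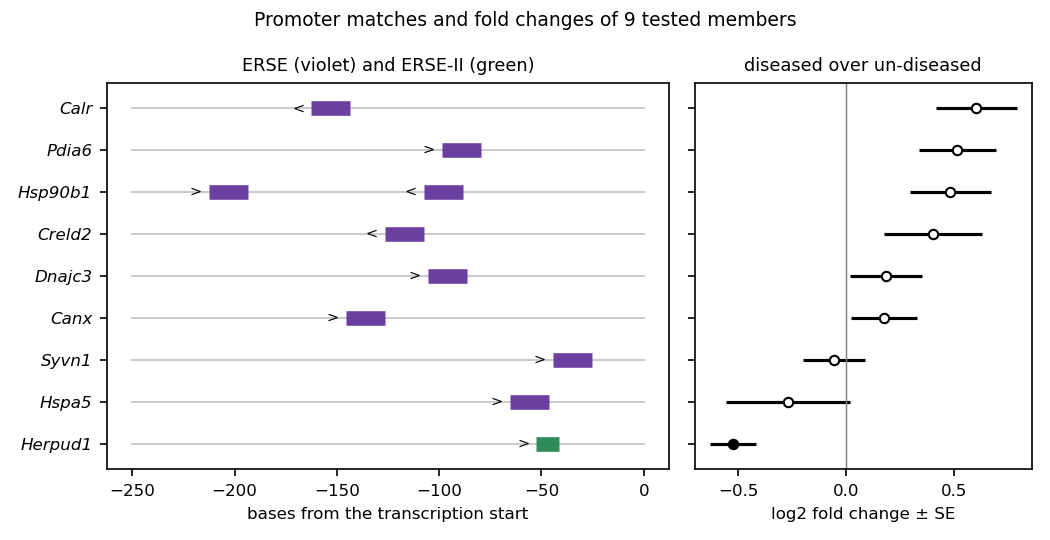
Left, position of ERSE (violet) and ERSE-II (green) in the 250 bases before the start of transcription, with an arrowhead for the strand that reads CCAAT to CCACG (for ERSE-II, ATTGG to CCACG); right, log2 fold change of diseased over un-diseased (± SE), filled where edgeR's adjusted p passed. The 9 genes run from Calr at 0.60 to Herpud1 at -0.53.

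BiP itself, encoded by Hspa5, gave no call, and its diseased samples were far apart. Hspa5 had 864, 1979 and 1314 CPM in diseased replicates 1, 2 and 3, against 1498, 1817 and 1692 CPM in the un-diseased ones. The diseased samples lay on both sides of the un-diseased ones, and the log2 fold change was -0.27 (SE 0.29, adjusted p = 0.556 by edgeR; 0.208 with the block). Hyou1, a large chaperone that exchanges the nucleotide of BiP, had 117.8, 260.3 and 173 CPM in diseased and 118.0, 154 and 129 CPM in un-diseased replicates. Manf, a small secreted protein that binds BiP, had 89.2, 200.2 and 137 CPM in diseased and 106, 116 and 113 CPM in un-diseased replicates. For each of these genes diseased replicate 2 was the highest and diseased replicate 1 the lowest of the diseased samples, and replicate 1 lay below every un-diseased sample, as replicate 3 also did for Hspa5. Sdf2l1, a partner of the BiP co-chaperones, had 9.49, 16.6 and 14.8 CPM in diseased and 8.91, 11.3 and 7.56 CPM in un-diseased replicates. Of the J-domain co-chaperones of BiP, Dnajb11 had log2 fold changes of 0.32 (SE 0.13), Dnajc3 0.19 (SE 0.17) and Dnajb9 -0.23 (SE 0.14). Dnajb11 was the only gene of the 7 whose diseased samples all lay above the un-diseased ones, as did 16.5% of all tested genes. Of these 7 genes, 0 passed edgeR's test with or without the block and 0 passed DESeq2's, and 1 had an unadjusted p under 0.05 by edgeR. Such a p was found for 27.8% of all tested genes.

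The other chaperones had positive fold changes throughout. Hsp90b1, the ER form of HSP90 (GRP94), had 798, 1249 and 987 CPM in diseased replicates 1, 2 and 3, against 699, 784 and 688 CPM in the un-diseased ones. Calr, calreticulin, which holds glycoproteins until they fold, had 936, 1372 and 1117 CPM in diseased and 720, 866 and 669 CPM in un-diseased replicates. The groups did not overlap for either gene. The log2 fold change of Hsp90b1 was 0.48 (SE 0.19, adjusted p = 0.151 by edgeR; 0.0471 with the block), and that of Calr 0.60 (SE 0.19, adjusted p = 0.107 by edgeR; 0.0177 with the block). Canx, the membrane-bound relative of calreticulin, stood at 0.18 (SE 0.15), and Creld2, a chaperone with isomerase activity, at 0.40 (SE 0.23), and their groups overlapped.

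Of the 8 disulfide genes 2 rose and 0 fell without the block, and 5 rose and 1 fell with it. Of all tested genes 1.61% rose and 2.13% fell without the block, and 10.5% rose and 13.3% fell with it. The 1 fall of 8 is thus near the share over all tested genes. Pdia4 (ERp72; GRCm38 chr6:47796141-47813430, - strand) had 123, 184 and 150.1 CPM in diseased replicates 1, 2 and 3, against 81.5, 100.4 and 81.1 CPM in the un-diseased ones. The lowest diseased sample stood above the highest un-diseased one, and Pdia4 rose 1.74-fold (log2 0.80, SE 0.17, adjusted p = 0.0472 by edgeR; 0.00269 with the block). Pdia5 (chr16:35397312-35490873, - strand) had 42.9, 45.7 and 48.7 CPM in diseased and 29.6, 27.5 and 32.7 CPM in un-diseased replicates. Its samples were tight within each group, and it rose 1.53-fold (log2 0.61, SE 0.11, adjusted p = 0.0301 by edgeR; 0.00517 with the block). With size factors of the RLE kind in place of TMM the adjusted p of Pdia4 was 0.0519 by edgeR, which did not pass. Pdia6 had 281, 440 and 362 CPM in diseased and 246, 279 and 233 CPM in un-diseased replicates. Pdia3 (ERp57), which works on glycoproteins together with calreticulin and calnexin, had 720, 914 and 851 CPM in diseased and 601, 633 and 616 CPM in un-diseased replicates. Erp44, which retains client proteins in the early secretory pathway, had 92.9, 108 and 104 CPM in diseased and 73.2, 77.6 and 79.1 CPM in un-diseased replicates. These 3 genes had non-overlapping groups, with log2 fold changes of 0.51 (SE 0.18) for Pdia6, 0.43 (SE 0.14) for Pdia3 and 0.41 (SE 0.10) for Erp44. By edgeR they passed with the block and not without it: the adjusted p of Pdia6 was 0.0281 with and 0.128 without, that of Pdia3 0.0439 with and 0.116 without, and that of Erp44 0.0152 with and 0.0634 without. Txndc5 had 498, 504 and 496 CPM in diseased and 401, 386 and 408 CPM in un-diseased replicates. It passed in neither edgeR fit (adjusted p = 0.122 without and 0.0634 with the block) but did with DESeq2 (adjusted p = 0.00757). P4hb, the classical disulfide isomerase and also the beta subunit of collagen prolyl 4-hydroxylase, stood at 0.20 (SE 0.14), with 1239.6 ± 111 CPM in diseased and 1079.8 ± 60.8 CPM in un-diseased samples (n = 3 each, SD).

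Ero1l, the oxidase that recharges disulfide isomerases, was the 1 that fell with the block. It had 50.5, 82.3 and 76 CPM in diseased replicates 1, 2 and 3, against 75.7, 113 and 94.9 CPM in the un-diseased ones. The groups overlapped, but each diseased sample was lower than the un-diseased sample of its number, by 0.58, 0.45 and 0.32 on the log2 scale. The log2 fold change was -0.44 (SE 0.21, adjusted p = 0.221 by edgeR), and with the block -0.45 (SE 0.09, adjusted p = 0.0129).

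Of the 6 prolyl isomerases 2 rose without the block and 4 with it, all of them of the FKBP family, and 0 fell in either fit. Of all tested genes 1.61% rose without the block and 10.5% with it. Fkbp14 (chr6:54577604-54597308, - strand), an isomerase that acts on collagen, had 68.5, 95.9 and 78.8 CPM in diseased replicates 1, 2 and 3, against 45.2, 50.3 and 53.8 CPM in the un-diseased ones. Fkbp11 (chr15:98724366-98728198, - strand) had 16.1, 18.6 and 18.2 CPM in diseased and 11.6, 9.89 and 12 CPM in un-diseased replicates. The groups of both genes stood apart, and 208 of the 4149 exon bases of Fkbp14 overlap the opposite-strand gene Plekha8. Exons of 9 members overlap a coding gene on the opposite strand: Fkbp14, Derl2, Fkbp10, Manf, Pdia3, Pdia6, Ppib, Syvn1 and Txndc5. Whether the counting used strand is not given in the sources used here. Fkbp14 rose 1.63-fold (log2 0.70, SE 0.14, adjusted p = 0.0435 by edgeR; 0.00465 with the block) and Fkbp11 1.58-fold (log2 0.66, SE 0.13, adjusted p = 0.0423 by edgeR; 0.0113 with the block). Fkbp10 (FKBP65), a collagen chaperone, had 288, 330 and 318 CPM in diseased and 217.5, 179 and 244.5 CPM in un-diseased replicates. Fkbp7 had 62.8, 56 and 62.9 CPM in diseased and 45.3, 39.3 and 57.4 CPM in un-diseased replicates. The groups of Fkbp10 did not overlap and those of Fkbp7 did, and both passed only with the block, at adjusted p of 0.0198 for Fkbp10 and 0.0405 for Fkbp7 by edgeR, against 0.0774 and 0.169 without it. Fkbp9 stood at 0.13 (SE 0.14). Ppib, cyclophilin B, a partner in the complex that 3-hydroxylates collagen prolines, had 277 ± 19 CPM in diseased and 272 ± 16.8 CPM in un-diseased samples (n = 3 each, SD), a log2 fold change of 0.03 (SE 0.11). The other partners of that complex were P3h1, its enzyme, which rose by 0.77 on the log2 scale (SE 0.14, adjusted p = 0.0366 by edgeR), and Crtap, at 0.17 (SE 0.13).

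Of the 7 tested genes of ER-associated degradation only Herpud1 passed, with and without the block, and the median log2 fold change was -0.03. Of all tested genes 2.13% fell without the block and 13.3% with it. Herpud1 (chr8:94386438-94395377, + strand), which scaffolds the ubiquitin ligase complex at the ER membrane, had 79.5, 95.4 and 79.6 CPM in diseased replicates 1, 2 and 3, against 124, 121 and 121 CPM in the un-diseased ones. All diseased samples lay below an un-diseased group that hardly varied, and the fall was to 0.695 of the un-diseased level (log2 -0.53, SE 0.11, adjusted p = 0.0435 by edgeR; 0.00862 with the block). Syvn1 (HRD1), the ligase of that complex, stood at a log2 fold change of -0.06 (SE 0.14), its partner Sel1l at -0.03 (SE 0.17), and Os9, a lectin that delivers clients to them, at -0.10 (SE 0.11). Edem1, which trims mannose from failed glycoproteins, stood at 0.15 (SE 0.16), and the membrane proteins Derl1 and Derl2 at 0.11 (SE 0.13) and 0.35 (SE 0.12). Of these 6 genes 0 passed edgeR's test with or without the block or DESeq2's, and 1, Derl2, had an unadjusted p under 0.05 and groups that did not overlap. Over all tested genes the unadjusted p by edgeR was under 0.05 for 27.8%, and the groups did not overlap for 31.9%. Derl3, not tested, had 0.391, 0.436 and 0.378 CPM in diseased and 0.469, 0.877 and 0.558 CPM in un-diseased replicates, at or near the worth of a few counts.

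Of the sensors and Xbp1, 0 passed edgeR's test without the block, and Ern1 fell with it and by DESeq2 (adjusted p = 0.0479). Of all tested genes 13.3% fell with the block and 6.65% by DESeq2. Ern1 had 25.1, 38.7 and 27.5 CPM in diseased replicates 1, 2 and 3, against 40.9, 48.8 and 44.2 CPM in the un-diseased ones. All diseased samples lay below the un-diseased ones, as they did for 15.4% of all tested genes. The log2 fold change of Ern1 was -0.55 (SE 0.17, adjusted p = 0.105 by edgeR; 0.00967 with the block). Atf6 had 71.1, 118 and 81.3 CPM in diseased and 81.6, 139 and 120.03 CPM in un-diseased replicates. Its groups overlapped, and every diseased sample was lower than its un-diseased partner (log2 fold change -0.33, SE 0.25, adjusted p = 0.393 by edgeR; 0.0505 with the block). Xbp1 had 113, 145 and 129.7 CPM in diseased and 132, 119 and 117 CPM in un-diseased replicates, with a log2 fold change of 0.07 (SE 0.12, adjusted p = 0.717 by edgeR; 0.696 with the block).

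Wider lists of the same pathways were read from the same test, and the PERK arm differed in sign from the folding genes. In the list of the PERK arm and the integrated stress response 25 of 26 genes were tested, 0 rose and 2 fell, and 21 of the 25 had a fold change below 0, with a median of -0.35. Under the block 11 fell and 0 rose, where 13.3% of all tested genes fell with the block and 2.13% without it. DESeq2 called 0 as higher and 3 as lower, where it called 6.65% of all tested genes as lower. An unadjusted p under 0.05 by edgeR was found for 7 of the 25, near the 27.8% of all tested genes. The diseased samples all lay below the un-diseased ones for 3 of the 25 and above for 1, against 15.4% and 16.5% of all tested genes. Trib3, a pseudokinase induced by ATF4 and CHOP, had 1.47, 1.62 and 2.05 CPM in diseased and 4.01, 6.07 and 3.97 CPM in un-diseased replicates. It fell by 1.45 on the log2 scale (SE 0.27, adjusted p = 0.0368 by edgeR). Cebpg, a dimer partner of ATF4, had 50.7, 43.6 and 48.1 CPM in diseased and 67, 73 and 77.4 CPM in un-diseased replicates. It fell by 0.61 (SE 0.10, adjusted p = 0.0293 by edgeR), and the groups of Trib3 and Cebpg did not overlap. Atf4 itself had 176, 265 and 236 CPM in diseased and 257, 362 and 364 CPM in un-diseased replicates, a log2 fold change of -0.54 (SE 0.20, adjusted p = 0.143 by edgeR; 0.0103 with the block). Ddit3, which encodes CHOP, had 25.5, 19.9 and 26.7 CPM in diseased and 43.2, 23.5 and 24.8 CPM in un-diseased replicates (adjusted p = 0.378 by edgeR). Eif2ak3, the PERK sensor, was one of the 4 above 0, with 55.1, 59.6 and 52.5 CPM in diseased and 48.9, 41.3 and 43.6 CPM in un-diseased replicates (log2 fold change 0.32, SE 0.10, adjusted p = 0.115 by edgeR; 0.0558 with the block).

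Counts for the lists of folding, transport and collagen genes stand beside the 1.61% of all tested genes called as higher without the block and the 10.5% with it. Of 30 tested genes of other folding and glycoprotein quality control, 3 rose and 0 fell (median 0.23), and the block gave 7 rises and 0 falls. The 3 were Erp29, a relative of the disulfide isomerases, with 55.6 ± 3.88 CPM in diseased and 35.6 ± 1.89 CPM in un-diseased samples, the calcium-binding Rcn1 with 234 ± 30.7 CPM in diseased and 133 ± 3.95 CPM in un-diseased samples, and Lman1, a cargo receptor to the Golgi, with 239 ± 31.7 CPM in diseased and 144 ± 9.93 CPM in un-diseased samples (n = 3 each, SD). Of 45 genes of translocation, N-glycosylation and vesicle export, 1 rose and 0 fell (median 0.17), and the block gave 8 rises and 0 falls; the 1 of 45 is close to the share over all tested genes. The 1 was Ostc, a subunit of the oligosaccharyltransferase, with 88 ± 7.52 CPM in diseased and 52.9 ± 2.03 CPM in un-diseased samples (n = 3 each, SD). Of 16 genes of collagen-specific folding and collagen cargo, 5 rose and 0 fell (median 0.67), and the block gave 7 rises and 0 falls. Serpinh1, the collagen chaperone HSP47, had 1039, 1279 and 1295 CPM in diseased and 690, 538 and 509 CPM in un-diseased replicates. In that list P4ha3, a collagen prolyl 4-hydroxylase subunit, had 192 ± 25.2 CPM in diseased and 108 ± 7.37 CPM in un-diseased samples (n = 3 each, SD). Of 25 other degradation genes 0 passed edgeR's test without the block, the unadjusted p was under 0.05 for 3 and DESeq2 called 1, with a median of -0.03, and the block gave 1 rise and 1 fall; Vcp, the ATPase that extracts clients, had the most counts, at 436 ± 57.3 CPM in diseased and 391 ± 17.5 CPM in un-diseased samples (n = 3 each, SD). Of 7 tested genes of ATF6 processing and related factors 0 passed either edgeR fit or DESeq2 and 1 had an unadjusted p under 0.05. Such a p by edgeR was found for 27.8% of all tested genes, beside the 3 of 25 and 1 of 7 in these 2 lists. Mbtps1, the protease that first cuts ATF6, had 189.8 ± 8.6 CPM in diseased and 172 ± 3.51 CPM in un-diseased samples (n = 3 each, SD).

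**Figure D4:**
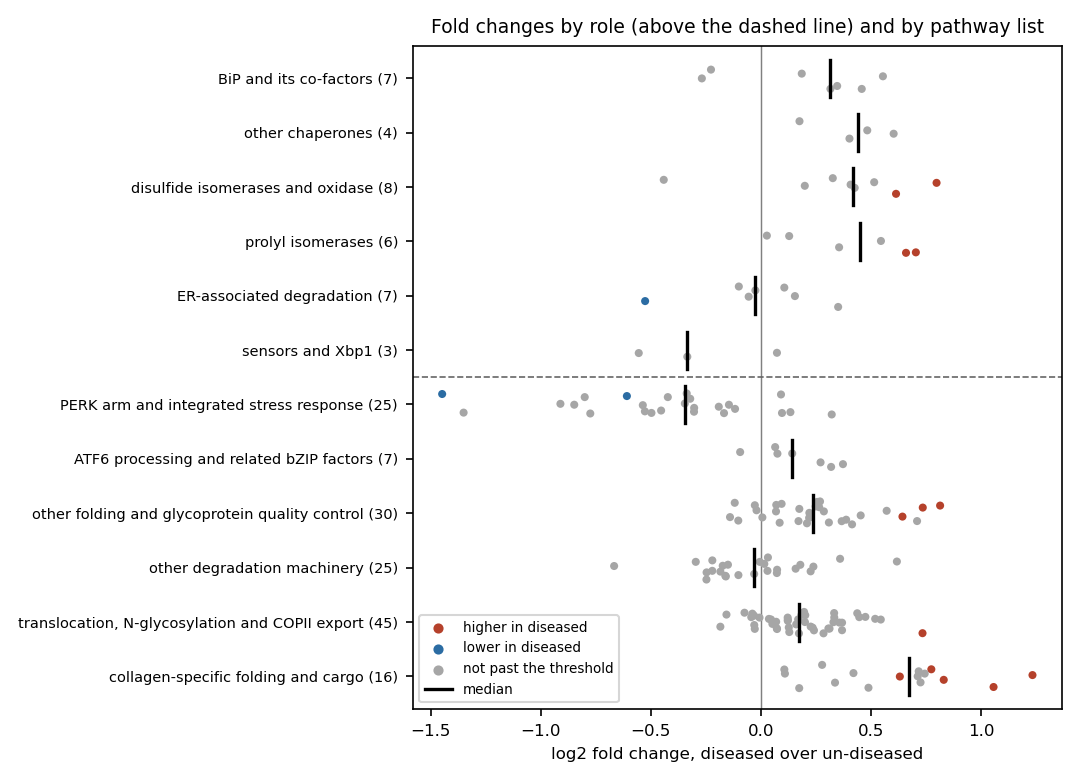
Log2 fold change of diseased over un-diseased for each tested gene, by role of the members (above the dashed line) and by pathway list (below it), with the number tested in brackets; red genes rose and blue genes fell by edgeR, and the bar is the median. Medians run from -0.35 in the PERK list to 0.67 in the collagen list.

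The members varied together among the diseased samples. Diseased replicate 2 was the highest of its group for 31 of the 35 tested members and replicate 1 the lowest for 33, against 41.2% and 38.1% of all tested genes. In the un-diseased group the highest sample was replicate 1 for 5 members, replicate 2 for 16 and replicate 3 for 14. The 36 members summed to 8593, 12322 and 10346 CPM in diseased replicates 1, 2 and 3, against 8598, 9402 and 9181 CPM in the un-diseased ones, so the sum of diseased replicate 1 was no higher than that of any un-diseased sample. The highest diseased sample exceeded the lowest 2.29-fold for Hspa5, 2.24-fold for Manf and 2.21-fold for Hyou1, but 1.02-fold for Txndc5 and 1.13-fold for Pdia5. By role, the median of that ratio was 1.75 for BiP and its co-factors, 1.52 for other chaperones, 1.23 for the disulfide group and 1.15 for prolyl isomerases. It was 1.35 for ER-associated degradation and 1.54 for the sensors and Xbp1, against 1.28 over all tested genes. Among un-diseased samples the medians of these 6 roles, in the same order, were 1.14, 1.16, 1.14, 1.23, 1.13 and 1.19, against 1.302 over all tested genes. That order was not particular to the members. The summed CPM of each of the 6 wider pathway lists, and of the fibroblast, endothelial, plasma and B cell, and cartilage markers, was also highest in diseased replicate 2 and lowest in replicate 1. The PERK list summed to 1865, 2303 and 2122 CPM in diseased replicates 1, 2 and 3, and the fibroblast markers to 114939, 144916 and 130509 CPM. Cartilage markers had sums of 240.4, 554 and 338 CPM in diseased replicates 1, 2 and 3, against 254, 227 and 137 CPM in the un-diseased ones. Macrophage markers were also highest in diseased replicate 2 but lowest in replicate 3. Neutrophil markers summed to 112, 183 and 60.6 CPM in diseased replicates 1, 2 and 3, against 34.9, 225 and 8.86 CPM in the un-diseased ones. In both groups these 2 marker lists were highest in replicate 2 and lowest in replicate 3. The part of any of these cell types in the differences was not tested.

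Taken by number, the pairs differed in size. The median log2 difference of the members, diseased minus un-diseased, was 0.02 in pair 1, 0.48 in pair 2 and 0.21 in pair 3. Disulfide genes stood at 0.29, 0.50 and 0.43 and prolyl isomerases at 0.44, 0.69 and 0.26 in the same 3 pairs. BiP and its co-factors stood at -0.02, 0.50 and 0.26. The medians of the isomerase groups were above 0 in every pair, and that of the BiP group was not. Of the 35 members 17 were higher in all 3 pairs and 6 lower in all 3, against 30.7% and 30.1% of all tested genes. Without pair 2 the block called 3 members as higher and 3 as lower, without pair 3 it called 3 and 1, and without pair 1 it called 13 and 4.

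Per length, the abundant members were few. Dividing CPM by the length of all annotated exons (GENCODE M21, kilobases) gave P4hb 433 ± 38.7 CPM per kilobase in diseased and 377 ± 21.3 in un-diseased samples, Calr 396 ± 76.1 in diseased and 261 ± 35.6 in un-diseased samples, and Hspa5 328 ± 133 in diseased and 395 ± 38 in un-diseased samples (n = 3 each, SD). Hspa5 was thus in 3rd place of the 36 in the diseased group and in 1st place in the un-diseased one, and the gap to P4hb was within the spread of Hspa5 in either group. Pdia3 and Hsp90b1 followed in both groups, at 264 ± 31.6 and 251 ± 56.1 in diseased samples, and did not differ beyond their spread there. The sensors lay near the bottom in both groups, with Ern1 at 3.72 ± 0.885 in diseased and 5.46 ± 0.483 in un-diseased samples.

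The authors' deposited table sets un-diseased over diseased on the log2 scale, so that a negative value there is higher in diseased samples. At a q-value under 0.05 it held 9 members as higher and 1 as lower in diseased samples, among 7.81% of its genes. In the authors' deposited table the 9 were Pdia3, Pdia4, Pdia5, Txndc5, Erp44, Calr, Fkbp10, Fkbp11 and Fkbp14, and the 1 was Herpud1. Hspa5 stood at 0.28 in the authors' deposited table, with a q-value of 0.645, and Pdia4 at -0.79, with a q-value of 0.00175.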

How the data were processed

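RNA of 6 samples, 3 diseased and 3 un-diseased, had been sequenced. The authors deposited values that the file header calls read counts, used here as estimated counts because 9.61% were not whole, beside their log2 ratio of un-diseased over diseased with its p-value and q-value. HISAT2 2.0.4, RSEM 1.3.1, DESeq2 1.4.5 and GRCm38 are named, with no role or order, per the submitters' processing notes; strandedness and annotation are not given in the sources used here. Estimated counts divide reads shared by similar genes.

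Counts were rounded. Genes were kept by filterByExpr with a count minimum of 10, scaled by TMM and tested across all 13264 kept genes with edgeR 4.0.16 (R 4.3.3), quasi-likelihood test, Benjamini-Hochberg threshold 0.05. DESeq2 1.42.0, limma-voom (limma 3.58.1), other scalings and filters, and leaving out samples were alternatives. The titles number the samples of each group 1 to 3. Deviations from the group means of same-numbered samples correlated over genes at r = 0.487, 0.578 and 0.276 for numbers 1, 2 and 3. Between samples of unlike number r ran from -0.531 to 0.137, the latter for diseased replicate 3 with un-diseased replicate 1. Deviations within a group cancel, so these values are not independent. The numbers were taken to pair samples from these data alone, and the labels do not say what same-numbered samples share. The tests were tried on simulated counts. Promoter sequences came from RefSeq (GRCm38.p6) and gene models from GENCODE M21.

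The members and gene lists were chosen with earlier results of these data known. Values in every sample were given for members called with or without the block, for the sensors, Xbp1, Hspa5 and Hsp90b1, and for Ddit3, Atf4, Trib3 and Eif2ak3; Hyou1, Manf, Sdf2l1, Txndc5 and Derl3 were added after their values were seen, as were Col1a1 and Crtap. From each pathway list up to 3 called genes with the smallest adjusted p were named, or the most abundant gene where 0 were called.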

Additional observations from a re-analysis of the deposited data

How the results depend on the processing

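With the replicate block 3167 genes were called in place of 495 (1397 higher, 1770 lower), 14 members (11 higher, 3 lower) and 35 genes of the pathway lists in place of 11. The 495 calls were all made with the block in the same direction. With the block and without pair 1, 2 or 3 the calls numbered 2569 (1013 higher, 1556 lower), 2083 (809 and 1274) or 1009 (426 and 583), those of members 17 (13 and 4), 6 (3 and 3) or 4 (3 and 1), and those of the lists 37, 23 or 14. DESeq2 called 1517 genes (635 higher, 882 lower) and 11 members (9 and 2). Upper-quartile scaling called 417 genes as higher, 8 members (7 as higher) and 17 list genes. At an adjusted p of 0.01 edgeR called 4 genes (2 higher, 2 lower) and 0 members. Leaving out 1 sample gave 5 (without diseased replicate 3) to 1075 genes (without un-diseased replicate 1), 2 to 354 higher and 3 to 721 lower, and 0 to 3 members, 0 to 2 higher and 0 to 1 lower. Over those 6 fits the adjusted p by edgeR ran from 0.0533 to 0.171 for Pdia4, 0.0407 to 0.146 for Pdia5, 0.0458 to 0.176 for Fkbp11, 0.0503 to 0.161 for Fkbp14 and 0.0441 to 0.182 for Herpud1. Each kept its sign. A fit without 1 sample has fewer samples; otherwise the cause was not tested.

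Signs turned for members near 0, and for no called one. Upper-quartile scaling gave log2 fold changes of 0.022 for Syvn1 and 0.057 for Sel1l. The block without pair 2 gave -0.012 for Ppib, -0.0014 for Fkbp9, -0.012 for Derl1 and -0.039 for Xbp1, and without pair 3 it gave 0.020 for Syvn1 and 0.12 for Sel1l. Over the fits that leave out 1 sample the value ran from -0.00083 to 0.32 for Dnajc3, -0.023 to 0.077 for Ppib, -0.22 to 0.050 for Syvn1, -0.16 to 0.10 for Sel1l, -0.017 to 0.20 for Derl1 and -0.016 to 0.16 for Xbp1. Of the single-member values under all alternatives 479 kept direction and side of the threshold, 33 came to pass it, 31 no longer passed and 17 turned sign.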

Other observations

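Set against Hspa5 within each sample, its co-factors Hyou1 and Manf varied little among the diseased samples, although their levels there differed 2.21-fold for Hyou1 and 2.24-fold for Manf. The ratio of Hyou1 to Hspa5 CPM was 0.136, 0.131 and 0.132 in diseased replicates 1, 2 and 3, against 0.0788, 0.0848 and 0.0765 in the un-diseased ones. The ratio of Manf to Hspa5 was 0.103, 0.101 and 0.105 in diseased and 0.071, 0.0637 and 0.0671 in un-diseased replicates. The groups did not overlap for either ratio, and neither did they for the ratios of Hsp90b1, Calr and Pdia4 to Hspa5. That of Hsp90b1 was 0.924, 0.631 and 0.751 in diseased and 0.467, 0.432 and 0.407 in un-diseased replicates. The ratio of Calr to Hspa5 was 1.08, 0.693 and 0.85 in diseased and 0.481, 0.477 and 0.395 in un-diseased replicates, and that of Pdia4 to Hspa5 was 0.143, 0.0929 and 0.114 in diseased and 0.0544, 0.0553 and 0.0479 in un-diseased replicates. The P4hb ratio overlapped between the groups, at 1.29, 0.669 and 0.975 in diseased and 0.698, 0.575 and 0.68 in un-diseased replicates. These ratios share Hspa5 as denominator, were chosen after the values were seen and were given no test.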
